A study of Mus musculus with 46 samples.

Results

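The receptors and partners of glial cell line-derived neurotrophic factor (GDNF) were followed through 23 mouse cell lines. The 7 genes were taken by symbol from the array annotation out of 19938 genes tested: the receptor tyrosine kinase gene Ret, the co-receptor genes Gfra1, Gfra2, Gfra3 and Gfra4, the ligand gene Gdnf, and the neural cell adhesion gene Ncam1. Each of the 7 was read by a single probe set of a whole-transcript Affymetrix array, and values are linear intensities. Levels were compared between groups for 1 gene at a time, since probe sets of different genes bind with different strength.

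The lines fall into 8 groups of 3 lines, except mGS with 2, and each line was grown and hybridised as 2 cultures. Germline stem (GS) cells, the cultured form of spermatogonial stem cells, were grown in a serum-poor StemPro-34 medium with 10 ng/ml GDNF and 10 ng/ml basic FGF. The 7 pluripotent groups were kept in serum with leukemia inhibitory factor at 1000 U/ml, and all 8 groups sat on mitomycin-treated embryonic fibroblasts (feeders). Lines other than ES came from DBA/2 mice carrying a GFP transgene. The embryonic stem (ES) lines were R1, a 129 hybrid, B6-6, from C57BL/6J, and BRC1, from a cross of B6, DBA2 and 129. The induced pluripotent (iPS) lines received Oct4, Sox2, Klf4 and c-myc by retrovirus. The multipotent germline stem lines are pluripotent derivatives of GS cells. The mGS lines carry no virus named in the labels, Dnmt mGS and Dmrt mGS received lentiviral knockdown of p53 with that of Dnmt1 or of Dmrt1, and Sox2 mGS and Oct4 mGS received lentiviral Sox2 or Oct4 with p53 knockdown. Medium and cell type therefore cannot be told apart in any comparison with GS, nor can strain in those with ES. The labels do not say whether a line goes back to 1 clone.

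GDNF acts on its target cells as a dimer that first binds GFRA1, a protein held in the membrane by a lipid anchor. The complex brings together pairs of RET, whose kinase then phosphorylates tyrosines that recruit SRC family kinases, the PI3 kinase and AKT route and the RAS and MAP kinase route. GFRA2, GFRA3 and GFRA4 are the preferred co-receptors of the related ligands neurturin, artemin and persephin, and NCAM can take up GDNF with GFRA1 in cells without RET. In the testis, Sertoli and other somatic cells make GDNF, and undifferentiated spermatogonia carry the receptors and need the signal to renew themselves.

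Line values below are the mean of the 2 cultures on the log2 scale, given as intensity, so n counts lines. Differences are on the log2 scale with the standard error from limma, fitted over all lines and genes, and adjusted p-values are Benjamini-Hochberg values over 19938 genes within a pair of groups. A difference was called at an adjusted p under 0.05. A level under 164.9, the 95th percentile of 1027 olfactory receptor genes that these cells are not known to use, was taken as not above background. Where a group mean lay under it, the fold was computed against 164.9 and is a lower bound.

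Of 18 spermatogonial markers, 11 were higher in GS than in ES and 3 lower, namely Cdh1 (−3.89), Kit (−1.86) and Sall4 (−0.77), which are also known in other cells. Over all genes, 26% were called higher in GS than in ES and 17.2% lower. Of the pluripotency markers, 12 of 12 were lower in GS. Their mean level in GS 1, at 258, was the highest of the 3 GS lines, which ranged from 185. GS 1 also had the most feeder signal of the 3, a mean intensity of 833 over 20 fibroblast genes against 308 and 271. The 14 testis somatic markers measured lay between 153 and 159.9 on average in GS. Among the Sertoli genes, Amh, Fshr, Clu, Inhbb and Dhh were under background there, while Inhba had 608, Wt1 542, Sox9 534 and Gata4 194. Array medians lay between 215.4 and 242.5 apart from culture 1 of Oct4 mGS 1 at 264.8.

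Ret, Gfra1, Gfra3 and Gfra4 were each higher in GS than in all 7 pluripotent groups, and every GS line stood above every other line for each of them. Ncam1 ran the other way against 6 of the 7 groups, Gfra2 was higher in GS than in iPS alone among the 7 comparisons, and Gdnf was called in none. The background of such calls was broad. Against ES, 4 of the 7 genes were higher and 0 lower, where 26% of all genes were called higher and 17.2% lower. Against iPS the counts were 5 higher and 1 lower, beside 35.5% and 18.5% of all genes. In each comparison with mGS, Dnmt mGS, Dmrt mGS, Sox2 mGS and Oct4 mGS, 4 genes were higher and 1 lower. The shares of all genes called higher there were 26.9% for mGS, 30% for Dnmt mGS, 24.1% for Dmrt mGS, 24.6% for Sox2 mGS and 22.6% for Oct4 mGS. Those called lower were 16.2%, 19.1%, 17.6%, 19.4% and 20.2% in the same order. The median difference of the 7 genes was 0.56 against ES, where the median of all genes was 0.09, and 0.40 against Sox2 mGS, where it was 0.06. The share of all genes for which every GS line stood above every line of the other group was 31% for ES, 43.8% for iPS, 41.3% for mGS, 37.2% for Dnmt mGS, 27.6% for Dmrt mGS, 32.7% for Sox2 mGS and 26.2% for Oct4 mGS. These 7 comparisons share the GS lines, so they are not independent of each other. The share of all genes called in all 7 at once, or with every GS line above every other line, is not given here.

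**Figure D1:**
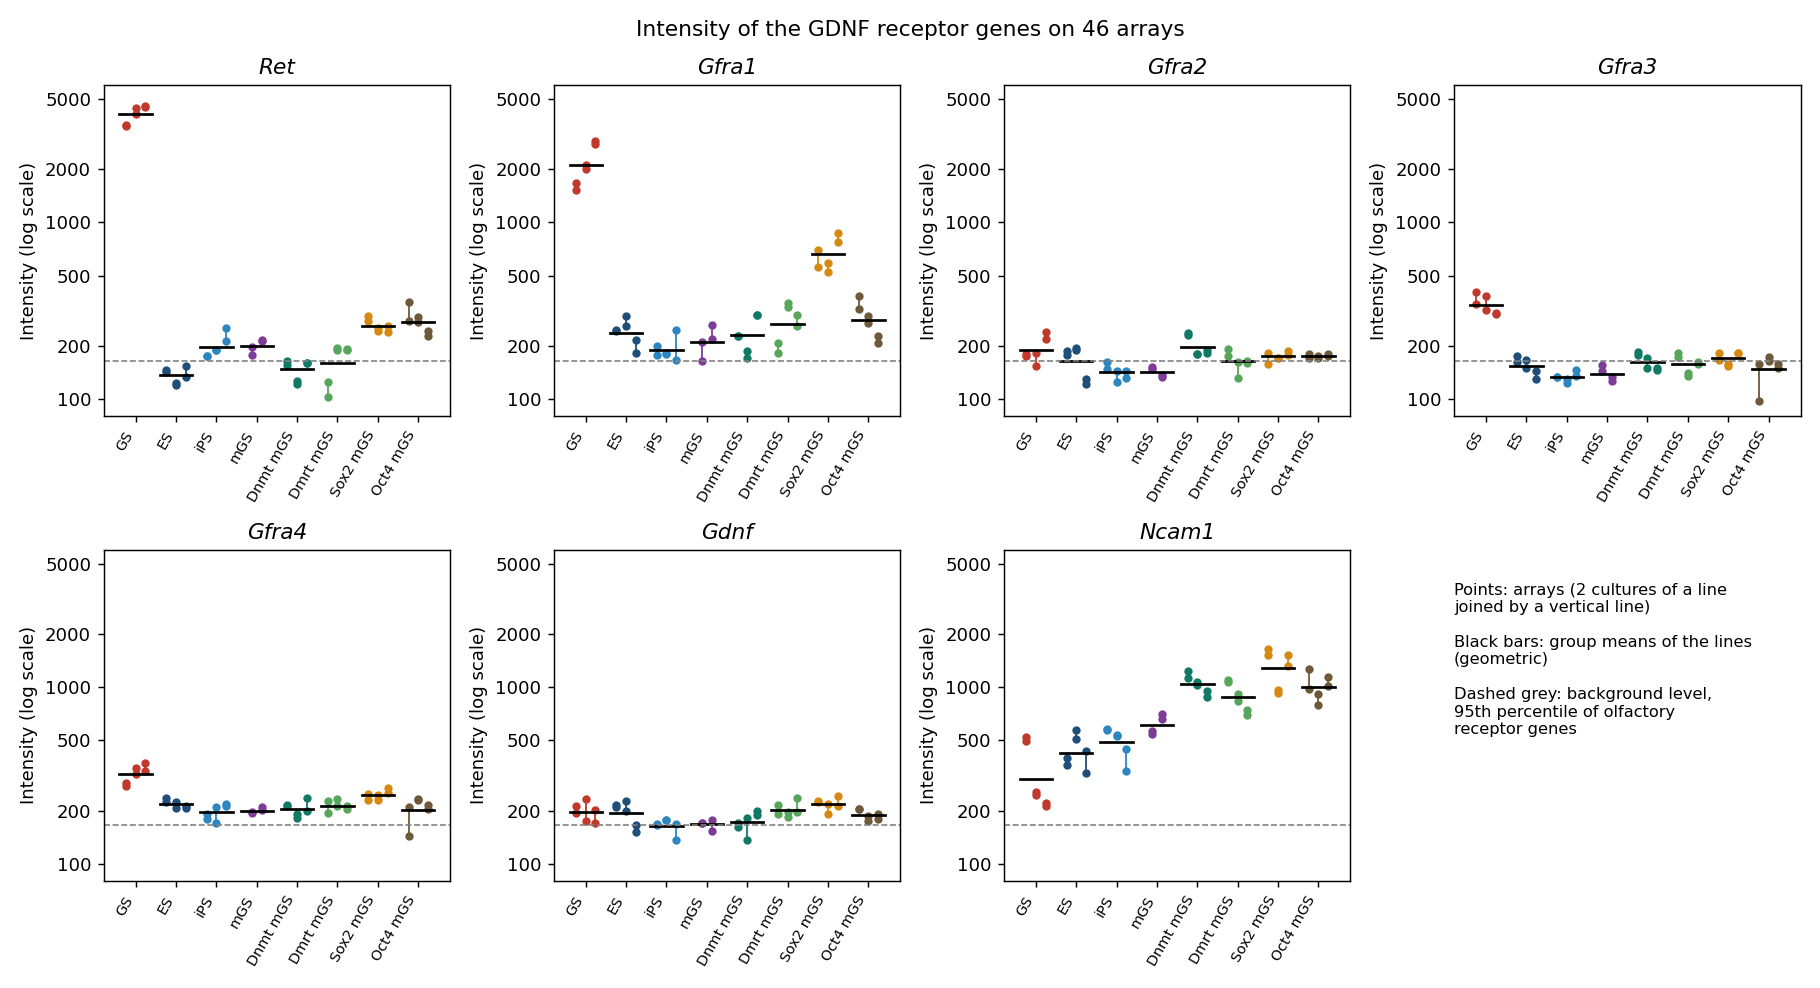
Intensity (log axis) of the 7 genes on the 46 arrays, by group; points are arrays, thin lines join the 2 cultures of a line, black bars are group means and the dashed line is the background level of 164.9. Ret, Gfra1, Gfra3 and Gfra4 are highest in the 3 GS lines, Gfra1 has a second, lower level in Sox2 mGS, and Ncam1 is lowest in GS 2 and GS 3.

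Ret, the signalling receptor, was read at 3519, 4280.3 and 4530.5 in the 3 GS lines. In ES it was 144 in R1, 144 in B6-6 and 122 in BRC1. The 3 GS lines were close to each other, and the 3 ES lines were all under the background level. The iPS lines 1, 2 and 5 gave 176, 190.4 and 231, and the mGS lines 187 and 216. Dnmt mGS lines had 160.2, 124 and 160.3, and Dmrt mGS lines 113, 192 and 190.0. These values straddle the background level, so Ret was little above it or not above it in lines of these groups. Sox2 mGS had 285, 249 and 250.2, and Oct4 mGS had 314, 282 and 235, each line above background. Of the 20 lines outside GS, 13 were above background. Duplicate cultures of a line differed by a median of 1.04-fold and by at most 1.29-fold.

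The difference in Ret between GS and ES was 4.91 ± 0.18 (SE, 3 lines against 3, adjusted p = 3.8e-13 with limma), at least a 24.8-fold higher level. The same bound held against Dnmt mGS (4.79 ± 0.18) and Dmrt mGS (4.67 ± 0.18). Against groups above background, Ret was 20.7-fold higher than in iPS, 20.3-fold higher than in mGS, 15.7-fold higher than in Sox2 mGS and 14.9-fold higher than in Oct4 mGS (3.89 ± 0.18, adjusted p = 8.6e-12 with limma). Without any single line, the difference from ES ranged from 4.83 to 5.02 and that from Oct4 mGS from 3.78 to 4.00. In bulk RNA such as this, fewer cells carrying a transcript and less of it per cell cannot be told apart.

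Gfra1, which binds GDNF and presents it to RET, was read at 1593, 2069.5 and 2835 in GS 1, GS 2 and GS 3. The ES lines had 199 (R1), 244 (B6-6) and 278 (BRC1), and the iPS lines 189, 181 and 202. The mGS lines had 186 and 239. GS 1 had the least Gfra1 and the most feeder signal of the GS lines, and whether the one has a part in the other was not tested. Dnmt mGS had 228, 179 and 299, and Dmrt mGS 196, 341 and 278. Oct4 mGS had 353, 283 and 218. The 3 Sox2 mGS lines, with 623, 556 and 826, lay above each of the other 17 pluripotent lines and below the GS lines. Unlike Ret, Gfra1 was above background in all 23 lines.

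The difference between GS and ES was 3.14 ± 0.25 for Gfra1 (adjusted p = 1.1e-08 with limma), an 8.84-fold higher level. It was widest against iPS, at 3.47 ± 0.25 or 11.1-fold. Against mGS it was 9.99-fold, against Dnmt mGS 9.16-fold, against Dmrt mGS 7.96-fold and against Oct4 mGS 7.55-fold. The narrowest step was from GS to Sox2 mGS, 1.68 ± 0.25 or 3.20-fold (adjusted p = 2.2e-05 with limma). Without any single line that step ranged from 1.46 to 1.88, and it was 2.15 with the feeder signal as a covariate.

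Promoter windows for 3 of the 7 genes were taken from the RefSeq table of GRCm38.p6, from 250 bases before to 50 after each start. Windows of the members on a further chromosome were left out by choice, while that chromosome stayed among all windows used for the shares below. Members without a window here, Gfra3 among them, may therefore have windows that are not counted. Those of Gfra1 and Gfra4 are shown. Both co-receptor genes were highest in GS and, among the pluripotent groups, in Sox2 mGS, as was Gfra3, for which no window was taken. Both are on the minus strand, the sequences read 5′ to 3′, and the capitals mark CpG, the dinucleotide that DNA methyltransferases such as Dnmt1 act on. The starts of Gfra4 are named in order of coordinate, so on this strand the other start lies upstream of the first.
Gfra1, chr19:58455349-58455648: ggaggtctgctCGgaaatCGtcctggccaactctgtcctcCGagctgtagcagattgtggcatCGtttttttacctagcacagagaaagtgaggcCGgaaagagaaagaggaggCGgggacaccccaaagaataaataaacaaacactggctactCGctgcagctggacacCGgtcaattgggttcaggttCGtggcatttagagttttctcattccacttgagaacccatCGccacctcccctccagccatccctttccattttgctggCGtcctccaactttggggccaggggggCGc
Gfra4, first start, chr2:131042633-131042932: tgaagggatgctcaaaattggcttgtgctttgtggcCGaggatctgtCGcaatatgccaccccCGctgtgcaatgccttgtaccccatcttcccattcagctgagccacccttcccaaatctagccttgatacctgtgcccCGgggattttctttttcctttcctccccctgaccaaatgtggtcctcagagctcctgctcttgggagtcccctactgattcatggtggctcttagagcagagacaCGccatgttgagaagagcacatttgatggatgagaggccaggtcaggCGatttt
Gfra4, other start, chr2:131043039-131043338: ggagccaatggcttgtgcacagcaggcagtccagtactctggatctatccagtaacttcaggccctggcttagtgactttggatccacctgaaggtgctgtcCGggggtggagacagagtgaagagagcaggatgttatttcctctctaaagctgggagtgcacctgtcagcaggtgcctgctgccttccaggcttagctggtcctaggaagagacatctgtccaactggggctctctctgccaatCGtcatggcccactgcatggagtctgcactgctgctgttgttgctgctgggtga
The Gfra1 window has 12 CpG, and 39.6% of the 32851 windows of this length have as many or more. The Gfra4 windows have 6 and 2, counts reached by 56.4% and 85.9% of windows, where the median window has 7. For Gdnf, the window at chr15:7809798-7810097 has 11 and the one at chr15:7813477-7813776 has 22, both on the plus strand. The motifs were searched on both strands: the GC box GGGCGG, the ETS core CCGGAA and the E-box CACGTG. The Gfra1 window holds the ETS core, as do 14.9% of all windows, and no other match was found in the 5 windows. The GC box is in 35.7% of all windows and the E-box in 7.15%. A match of letters is a description and not a measured binding site.

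Gfra3, the co-receptor of artemin, was read at 373, 349.7 and 305 in the GS lines. Outside GS it lay between 124 and 183, and 6 of those 20 lines were above background. The GS lines thus stood apart from the rest, which were at or near the background level. The difference was 1.15 ± 0.13 against ES, 1.36 against iPS and 1.00 against Sox2 mGS, with adjusted p-values from limma between 9.2e-08 and 4.0e-06 over the 7 comparisons. The folds are lower bounds, at least 2.07-fold against 6 of the groups, and 2.01-fold against Sox2 mGS, whose mean of 170.2 was above background. Without any single line the 7 differences lay between 0.94 and 1.44. The group means after GS, from 170.2 in Sox2 mGS down to 133 in iPS, formed an order in which no neighbours differed by the test.

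Gfra4, the co-receptor of persephin, was read at 281, 336 and 354 in GS. Sox2 mGS followed with 239, 236 and 260.0, then ES with 229.6, 216 and 209.5 in B6-6, BRC1 and R1. The other 14 lines lay between 173 and 231. All 23 lines were above background, and the whole range of group means was 1.64-fold. The difference was 0.56 ± 0.11 against ES and 0.40 ± 0.11 against Sox2 mGS, a 1.32-fold step with an adjusted p of 0.0051 from limma, the highest of the 7. With single lines left out, the step to Sox2 mGS ranged from 0.33 to 0.49 and stayed called. Below it, the step from Sox2 mGS (245) to ES (218) was 0.17 with an adjusted p of 0.32, though the lines did not overlap, and the means from ES to iPS (196) lay within smaller steps, none of them called.

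Gfra2, the co-receptor of neurturin, was read at 177, 168 and 230.1 in GS and at 155, 134 and 138 in iPS. Dnmt mGS had 234, 180.0 and 185, and the group means ran from 198 there to 142 in iPS, a range of at least 1.20-fold with 15 of 23 lines above background. No neighbours in the order of group means differed by an adjusted p under 0.05. Gfra2 was called higher in GS than in iPS at 0.42 ± 0.15 (adjusted p = 0.023 with limma), where all 3 iPS lines were under background. It was 0.22 with an adjusted p of 0.10 when values under background were raised to it, and was not called under quantile normalization (0.32) or with arrays centred on their median (0.34). The call was lost with GS 3 left out (0.28), with iPS 2 left out (0.38) and with iPS 5 left out (0.40). Against mGS, where lines had 149.9 and 135, the difference of 0.42 had an adjusted p of 0.0501 and was called without GS 1 (0.47) or without GS 2 (0.50).

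Gdnf itself was read at 203, 201 and 185 in GS. The Sox2 mGS lines had 225, 204 and 227, and iPS lines 166, 177 and 152. ES lines had 214, 212 and 159 in B6-6, BRC1 and R1. Group means covered at least 1.32-fold, from 165 in iPS to 218 in Sox2 mGS, GS lay within that range, and no neighbours in the order differed by the test. None of the 7 differences from GS was called by limma, 1 of them had an unadjusted p under 0.05, and they lay between −0.15 and 0.25. The highest, against iPS (adjusted p = 0.055), was called without iPS 2 (0.31). The GS medium supplies GDNF protein, which these arrays do not measure.

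**Figure D2:**
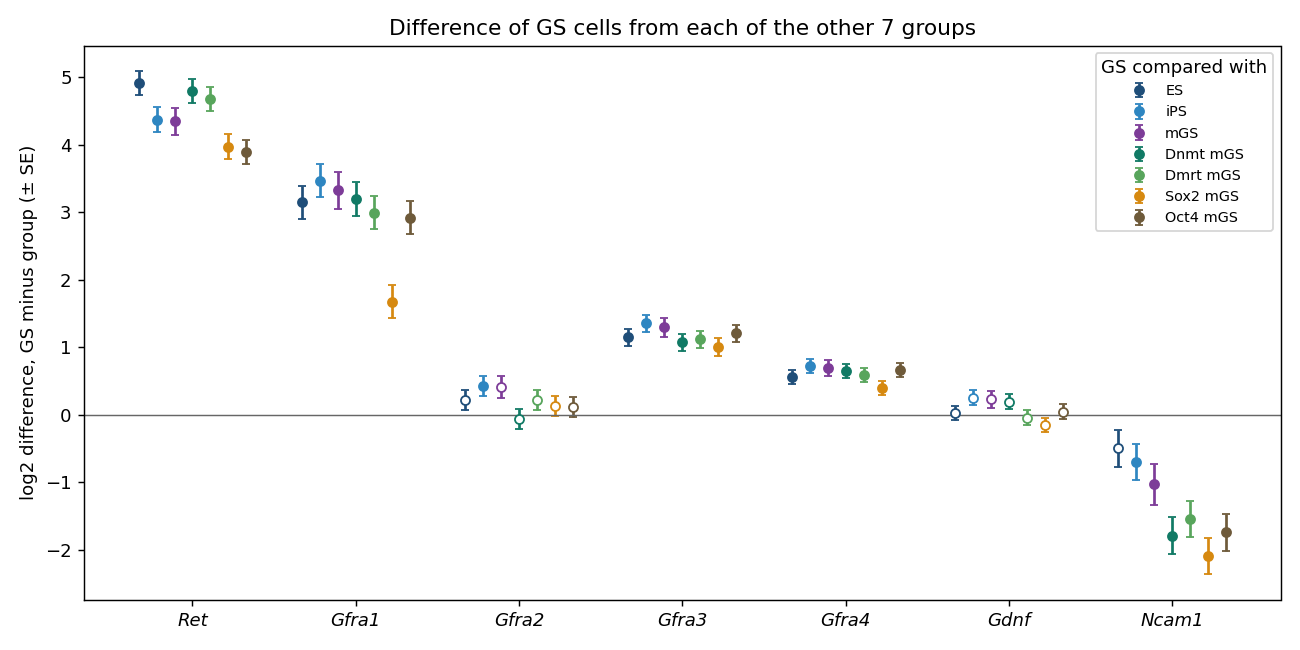
Difference in log2 intensity of GS minus each of the 7 pluripotent groups for the 7 genes; bars are standard errors from limma, filled points have an adjusted p under 0.05 and open points do not. Ret stands at 3.89 to 4.91 and Gfra1 at 1.68 to 3.47, Gfra3 and Gfra4 are smaller and positive throughout, and Ncam1 is negative, from −0.49 to −2.09.

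Ncam1, a cell adhesion molecule that also binds GDNF with GFRA1, had its lowest group mean in GS. The GS lines had 508, 250.3 and 216, GS 1 being the highest. ES lines had 379, 539 and 376 in B6-6, BRC1 and R1, and iPS lines 573, 532 and 386, so both groups overlapped with GS. The mGS lines had 552 and 684. The 4 groups made with lentivirus were higher still: Dnmt mGS had 1178, 1053 and 915, and Dmrt mGS had 1084, 875 and 717. Sox2 mGS had 1583, 948 and 1417, and Oct4 mGS had 1110.5, 855 and 1073. By group mean the order was Sox2 mGS (1286), Dnmt mGS (1043), Oct4 mGS (1006), Dmrt mGS (879), mGS (614), iPS (490.0), ES (425) and GS (302). No neighbours in it were called, and only Dmrt mGS and mGS, 0.52 apart, did not overlap. Every GS line lay below every line of these 4 groups and of mGS, as held for 23.5% of all genes against mGS, 21.2% against Dnmt mGS, 20.7% against Dmrt mGS, 25.6% against Sox2 mGS and 23.3% against Oct4 mGS.

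The difference of GS from Sox2 mGS was −2.09 ± 0.27 for Ncam1 (adjusted p = 5.8e-06 with limma), a 4.26-fold lower level in GS. It was −1.79 against Dnmt mGS, −1.54 against Dmrt mGS and −1.74 against Oct4 mGS. The difference from ES, −0.49 ± 0.27, was not called (adjusted p = 0.16), and it was −0.87 with an adjusted p of 0.0064 without GS 1. The call against iPS (−0.70, adjusted p = 0.038) was lost without GS 2 (−0.56), GS 3 (−0.46), iPS 1 (−0.59) or iPS 2 (−0.64). That against mGS (−1.03, adjusted p = 0.011) was lost without GS 3 (−0.78) or mGS 2 (−0.87).

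Among the 20 pluripotent lines the order of Ret by group mean was Oct4 mGS at 275, Sox2 mGS at 261, mGS at 201, iPS at 198, Dmrt mGS at 160.3, Dnmt mGS at 147 and ES at 136. No neighbours in that order differed by the test. Groups further apart did. Ret was lower in ES than in Oct4 mGS (−1.01 ± 0.18, adjusted p = 0.0024 with limma) and than in Sox2 mGS (−0.94 ± 0.18, adjusted p = 0.0025). It was lower in Dnmt mGS than in Oct4 mGS (−0.90, adjusted p = 0.0059, or 0.10 with only these 2 groups fitted) and Sox2 mGS (−0.82, adjusted p = 0.0038). The lower level in Dmrt mGS than in Oct4 mGS (−0.78, adjusted p = 0.038) was lost without Dmrt mGS 1 (−0.53), Dmrt mGS 3 (−0.90), Oct4 mGS 1 (−0.68) or Oct4 mGS 2 (−0.76). That against Sox2 mGS (−0.70, adjusted p = 0.023) was lost without Dmrt mGS 1 (−0.45), Sox2 mGS 1 (−0.64) or Sox2 mGS 3 (−0.73). The lower groups here are at or under the background level, so these differences describe a step of Ret from background to a little above it.

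For Gfra1 the order after GS was Sox2 mGS at 659, Oct4 mGS at 279, Dmrt mGS at 264.7, ES at 238, Dnmt mGS at 230.1, mGS at 211 and iPS at 190.4. Steps between neighbours from Oct4 mGS down were 0.05 to 0.15 and none was called. Sox2 mGS stood above them: Gfra1 was lower in iPS (−1.79 ± 0.25, adjusted p = 0.00019 with limma), Dnmt mGS (−1.52), ES (−1.47), Dmrt mGS (−1.32) and mGS (−1.64, adjusted p = 0.0030). Without mGS 1 the last was −1.46 with an adjusted p of 0.083. As folds, Sox2 mGS was 3.46 times iPS, 2.87 times Dnmt mGS, 2.77 times ES and 2.49 times Dmrt mGS. Sox2 mGS and Oct4 mGS did not overlap, 1.24 ± 0.25 apart, with an adjusted p of 0.053, and the difference was called without Sox2 mGS 2 (1.36, adjusted p = 0.049).

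Among pluripotent groups Ncam1 was lower in ES than in Sox2 mGS (−1.60, adjusted p = 0.0011 with limma), Dnmt mGS (−1.30, adjusted p = 0.0061) and Oct4 mGS (−1.24, adjusted p = 0.0089), and lower in iPS than in Sox2 mGS (−1.39, adjusted p = 0.0022). The difference of iPS from Dmrt mGS was not called (−0.84, adjusted p = 0.13). Other calls for Ncam1 were lost with single lines left out, in some cases with a larger difference. The call of iPS below Dnmt mGS (−1.09) was lost without Dnmt mGS 1 (−1.002), Dnmt mGS 2 (−1.08), iPS 2 (−1.15) or iPS 5 (−0.92), and that of iPS below Oct4 mGS (−1.04) without iPS 2 (−1.10), iPS 5 (−0.87) or Oct4 mGS 1 (−0.97). The call of ES below Dmrt mGS (−1.05, adjusted p = 0.035) was lost without Dmrt mGS 1 (−0.90), Dmrt mGS 2 (−1.05) or any of the ES lines B6-6 (−0.97), BRC1 (−1.22) and R1 (−0.96). The call of mGS below Sox2 mGS (−1.07, adjusted p = 0.041) was lost without either mGS line (−0.91 and −1.22), Sox2 mGS 1 (−0.92) or Sox2 mGS 3 (−0.995).

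Smaller differences placed Gfra4 and Gdnf highest in Sox2 mGS among the pluripotent groups. Gfra4 was lower in iPS than in Sox2 mGS by −0.32 (adjusted p = 0.036 with limma), a call lost without iPS 1 (−0.28), iPS 2 (−0.29), Sox2 mGS 1 (−0.34), Sox2 mGS 2 (−0.35) or Sox2 mGS 3 (−0.28), and the difference was −0.17 with quantile normalization. Gdnf was lower in iPS (−0.41, adjusted p = 0.013) and in Dnmt mGS (−0.35, adjusted p = 0.025). The first call was lost without iPS 5 (−0.35) or Sox2 mGS 3 (−0.38), and the second without Dnmt mGS 1 (−0.32), Dnmt mGS 2 (−0.29), Sox2 mGS 1 (−0.33) or Sox2 mGS 3 (−0.32). Gfra2 and Gfra3 had 0 calls in the 21 pairs of pluripotent groups by limma, and each had an unadjusted p under 0.05 in 2 of them.

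Counted by pair of pluripotent groups, Sox2 mGS exceeded iPS in 4 of the 7 genes, where 14.4% of all genes were higher in Sox2 mGS, and ES in 3, where 7.95% were. It exceeded Dnmt mGS in 3 (14.7% of all genes), mGS in 2 (3.96%) and Dmrt mGS in 2 (3.68%). Oct4 mGS exceeded ES in 2 (6.47%), iPS in 1 (10.4%), Dnmt mGS in 1 (9.54%) and Dmrt mGS in 1 (1%). Dnmt mGS exceeded ES in 1 (6.77%) and iPS in 1 (4.18%), and Dmrt mGS exceeded ES in 1 (2.29%).

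The feeder signal moved with several of these values. The mean of the 20 fibroblast genes, among them the collagen genes Col1a1 and Col3a1 and the receptor genes Pdgfra and Pdgfrb, lay between 1525 and 2154 in Sox2 mGS, the highest of the 8 groups. It was 741 to 1677 in Oct4 mGS, 245 to 1494 in Dnmt mGS, 251 to 1157 in Dmrt mGS, 397 to 1243 in ES, 303 to 433 in iPS and 317 and 1007 in mGS. In GS against Sox2 mGS, 15 of the 20 were lower in GS, beside 19.4% of all genes. Over the 20 lines outside GS, which share groups and the feeder preparation named in the labels, Pearson's r of log2 level with log2 feeder signal was 0.84 for Gfra1, 0.71 for Gdnf, 0.58 for Ret, 0.57 for Gfra4, 0.39 for Ncam1, 0.23 for Gfra2 and 0.15 for Gfra3. Over the 17 lines left without Sox2 mGS it was 0.93 for Gfra1 and 0.45 for Ret. At a like feeder signal, Sox2 mGS 2 (1525) had a Gfra1 level of 556. Dnmt mGS 3 (1494) had 299 and Oct4 mGS 1 (1677) had 353. The mean of the 12 pluripotency markers was lowest among the pluripotent groups in Sox2 mGS, at 1363, with lines from 1065 to 1883. Oct4 mGS followed at 1738.5, and the other pluripotent groups lay between 2466 and 3109. Which cells gave the fibroblast signal was not tested.

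With the feeder signal as a covariate, Gfra1 was lower than in Sox2 mGS in iPS (−1.28), mGS (−1.27), ES (−1.20), Dnmt mGS (−1.14) and Dmrt mGS (−0.99), each called by limma, and the difference from Oct4 mGS was 1.10 (adjusted p = 0.038). The Ret differences of Dnmt mGS and Dmrt mGS from Sox2 mGS were −0.60 (adjusted p = 0.051) and −0.51 (adjusted p = 0.14). Those of Gdnf were −0.22 for iPS and −0.21 for Dnmt mGS, and neither was called. Nor were Ncam1 in mGS against Sox2 mGS (−0.94, adjusted p = 0.12), Ncam1 in iPS against Oct4 mGS (−0.91, adjusted p = 0.060) and Gfra4 in iPS against Sox2 mGS (−0.30, adjusted p = 0.16). In the comparisons with GS, Ret, Gfra1, Gfra3 and Gfra4 kept all 7 calls with this covariate, and Ncam1 kept its 6.

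**Figure D3:**
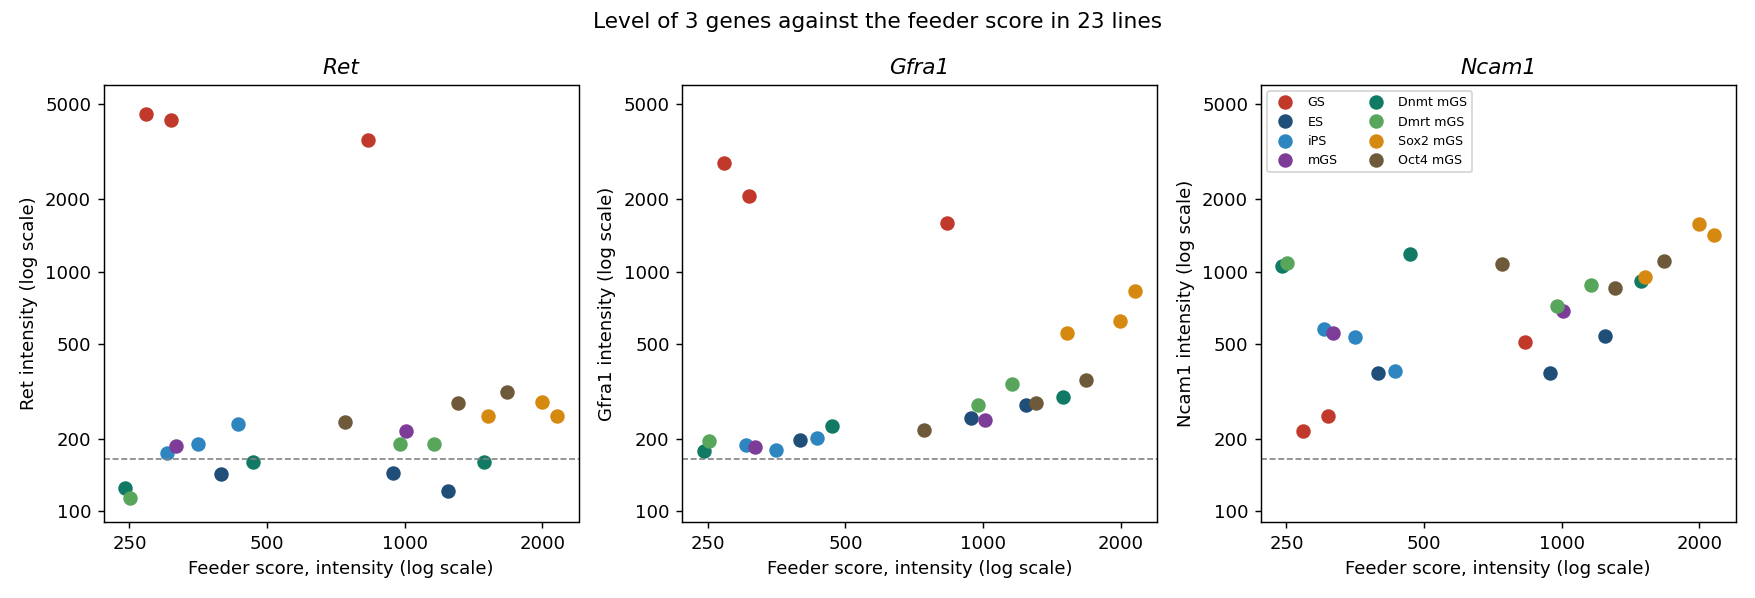
Intensity of Ret, Gfra1 and Ncam1 in each of the 23 lines against the mean intensity of 20 fibroblast genes (both axes log); points are lines, coloured by group, and the dashed line is the background level of 164.9. GS lines lie far above the others for Ret at feeder values of 271 to 833, and Gfra1 outside GS climbs with the feeder signal (r = 0.84), with Sox2 mGS at the upper right.

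The genes most like each of the 7 over the 23 lines were picked by Pearson's r of log2 level among 14154 genes above background in at least 1 group. For Ret they were Txndc16 (0.99), Cracdl (0.98), Cacna1h (0.98), Rrad (0.98) and Wdr48 (0.98). For Gfra1 they were Psd3 (0.98), Kcng3 (0.97), Mrtfb (0.97), Cblb (0.97), which encodes a ubiquitin ligase of receptor kinases, and Smoc2 (0.97). Over the 20 lines outside GS, the genes named for Ret had from 0.65 (Rrad) to 0.85 (Txndc16) with it. Those named for Gfra1 had from 0.89 (Mrtfb) to 0.96 (Psd3), with 0.95 for Cblb. For Gfra3 they were Stpg2 (0.97), Dlx4, Prame, Cabyr and Cntn6 (0.95), with 0.67 to 0.79 outside GS. For Gfra4 they were Ypel4 (0.92), Dnaja4 (0.91), Gfra1 (0.91), Clcf1 (0.90) and Zfp831 (0.90), with 0.61 to 0.74 outside GS. For Gfra2, Wnt4 (0.83), Neurog2 (0.80), Mrgprg (0.78), Fut2 (0.77) and Mfsd7a (0.77) came first. For Gdnf they were genes including the extracellular matrix genes Fbln7 (0.88) and Col16a1 (0.88), with Pparg (0.89), Adgra1 (0.88) and Foxs1 (0.87). For Ncam1 they were Sfxn3 (0.93), Man2b2 (0.92), Phyhd1 (0.92), Sorbs3 (0.91) and Itgav (0.91), an integrin subunit gene.

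Among the 7 themselves, Ret and Gfra1 had an r of 0.91 over 23 lines and 0.56 over the 20 outside GS. Gfra1 and Gfra4 had 0.91 and 0.68. Ret and Ncam1 had −0.53 over all lines and 0.34 outside GS, so the sign of that relation depends on the GS lines. Gdnf and Gfra1 had 0.46 and 0.72.

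Other ligands and binding partners of the receptors were measured for 6 genes: the ligand genes Nrtn, Artn and Pspn, the co-receptor gene Gfral, the GFRA-like gene Gas1, and Sdc3, a heparan sulfate proteoglycan that binds GDNF. Against ES, where 26% of all genes were higher in GS and 17.2% lower, 0 of the 6 were higher and 1 lower. That was Gas1, at 598 in GS and 1153 in ES (−0.95 ± 0.37, adjusted p = 0.047 with limma), and 8 of 19 alternative settings lost it, among them those without B6-6 (−0.78), BRC1 (−0.74), GS 2 (−0.87) or GS 3 (−0.83). Nrtn, Artn, Pspn and Gfral were not called against ES, and Sdc3 had a difference of −1.02 with an adjusted p of 0.15, which was −1.49 and called without GS 1. With the feeder signal as a covariate Gas1 stood at −0.53 (adjusted p = 0.062). Against Sox2 mGS and against Oct4 mGS, Gas1 and Sdc3 were lower in GS. The calls against Oct4 mGS were lost in 8 of 20 settings for Gas1 and in 7 of 20 for Sdc3. Those against Sox2 mGS were lost in 1 of 20 for each. Pspn, the persephin gene, was higher in GS than in iPS (0.39) and mGS (0.33), calls lost in 2 of 20 and 8 of 19 settings. Artn was lower in GS than in iPS (−0.25) at levels under background in both, and 9 of 19 settings lost that call. None of the 6 was called against Dnmt mGS or Dmrt mGS.

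Of 24 genes measured that carry the signal from RET inside the cell, 5 were higher and 7 lower in GS than in ES, where 26% of all genes were higher and 17.2% lower. Their median was 0.05 beside 0.09 over all genes. The counts were 5 and 9 against iPS, 5 and 6 against mGS, 5 and 9 against Dnmt mGS, 4 and 8 against Dmrt mGS, 3 and 10 against Sox2 mGS, and 4 and 9 against Oct4 mGS, beside the shares of all genes given with the receptor counts (22.6% to 35.5% higher, 16.2% to 20.2% lower). Fyn, a SRC family kinase, had 2237 in GS and 456 in ES (2.30 ± 0.23). Its close relative Yes1 was lower in GS, at 433 against 1243 (−1.52 ± 0.24). The docking protein genes also split: Gab2 had 371 in GS and 175 in ES (1.08), while Gab1 had 714 and 2894 (−2.02 ± 0.19). Akt2, a kinase downstream of PI3 kinase, had 2812 and 1485 (0.92 ± 0.14), and Pik3r1, a regulatory subunit of PI3 kinase, had 379 and 663 (−0.81). The ubiquitin ligase gene Cblb had 1832 and 871 (1.07 ± 0.14), and its relative Cblc had 78.4 in GS, under background, and 221 in ES, at least a 1.34-fold lower level in GS. The sorting receptor gene Sorl1 had 234 and 560 (−1.26 ± 0.28), and Grb10, an adaptor that binds RET, had 196 and 979 (−2.32 ± 0.62). The other calls against ES were weaker: Plcg1 at 0.28 was lost in 9 alternative settings, down to 0.18 without BRC1, and Grb7 at −0.84 was lost in 8, including each of 6 with a line of GS or ES left out (−0.70 to −0.93).

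Akt2, Cblb and Fyn were called higher in GS in all 7 comparisons, and Cblc, Gab1, Pik3r1, Sorl1 and Yes1 lower in all 7. The comparisons share the GS lines, and how many of all genes were called in all 7 is not given here. Across the 7, the Akt2 difference ran from 0.89 to 1.37 and that of Gab1 from −2.10 to −1.61. The Fyn difference ran from 0.81 against Sox2 mGS to 2.30 against ES, and the first was lost without GS 2 (0.65), without GS 3 (0.66) or with the feeder signal as a covariate (0.77). That of Cblb from Sox2 mGS was 0.43, and it was lost without GS 2 (0.34), GS 3 (0.38) or Sox2 mGS 2 (0.40). The call of Yes1 against Dmrt mGS was lost without Dmrt mGS 1 (−0.53) or GS 1 (−0.61). Pik3r1 lost its call in 4 of the 7 comparisons without single lines: against iPS without GS 1, GS 3, iPS 2 or iPS 5, against mGS without any of GS 1, GS 3, mGS 1 or mGS 2, against Dnmt mGS without GS 1, GS 3 or Dnmt mGS 2, and against Oct4 mGS without Oct4 mGS 1, with values between −0.39 and −0.77. With values raised to the background level, Cblc was −0.42 against ES and −0.48 against Sox2 mGS, and neither was called. The Fyn call against Oct4 mGS (1.04) was lost in 1 of 20 settings (adjusted p = 0.055 with limma). Sox2 mGS, which had the highest Gfra1 among the pluripotent groups, exceeded ES in 8 of the 24, where 7.95% of all genes were higher in Sox2 mGS. The 8 were Dok5 (ES minus Sox2 mGS −1.60, with ES under background), Fyn (−1.49), Dok2 (−1.19), Gab2 (−0.75), Dok1 (−0.65), Cblb (−0.64), Akt1 (−0.63) and Cbl (−0.41). The feeder signal of Sox2 mGS given above stands beside these values, and its part in them was not tested gene by gene for ES against Sox2 mGS.

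Genes known to answer GDNF in cultured spermatogonia were measured for 13. In GS 6 were higher and 2 lower than in ES, beside 26% and 17.2% of all genes, with a median of 1.10 beside 0.09. The counts were 8 and 3 against iPS, 4 and 2 against mGS, 9 and 1 against Dnmt mGS, 7 and 2 against Dmrt mGS, 5 and 1 against Sox2 mGS, and 7 and 2 against Oct4 mGS, where 22.6% to 35.5% of all genes were higher and 16.2% to 20.2% lower. The list was put together with earlier results of these data known, so its direction is no independent evidence. Bcl6b, a transcriptional repressor gene needed for spermatogonial self-renewal, had a GS mean of 1953, with lines between 863 and 3131, and 214 in ES (3.19 ± 0.53). Lhx1, a homeobox gene, had 794 in GS, between 395 and 1554, and 105 in ES, under background, at least 4.82-fold (fitted difference 2.93 ± 0.51). The early growth response genes followed: Egr2 had 1513 in GS, between 1403 and 1687, and 370.3 in ES (2.03 ± 0.25), and Egr3 had 648 and 295 (1.14 ± 0.18). Nefm, a neurofilament gene, had 497 and 97.7, again under background, at least 3.01-fold. Id4, a marker of spermatogonial stem cells, had 654 and 347 (0.92). The Id4 call was lost without the ES line B6-6 (0.75).

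The exceptions were Etv5 and Mycn. Etv5, an ETS factor gene that GDNF induces in spermatogonia, had 1168 in GS, with lines between 484 and 1864, and 3084 in ES (−1.40 ± 0.32), and it was lower in GS in all 7 comparisons. Across the alternative settings its difference from ES lay between −1.74, without GS 2, and −0.77, without GS 1, and in 4 of the comparisons the call was lost when only the 2 groups compared were fitted. Mycn had 1003 and 2230.2 (−1.15 ± 0.23). Bcl6b and Egr3 were higher in GS in all 7 comparisons, with fitted differences of 3.03 to 3.84 and of 0.88 to 1.61, the highest of Bcl6b being against Dnmt mGS, where its level of 136 was under background (at least 11.8-fold). Egr2 ran from 0.54 against Sox2 mGS, which was not called (adjusted p = 0.088), to 3.67 against Dnmt mGS, where its level of 119 was under background (at least 9.18-fold). Lhx1 was not called against mGS (0.77, adjusted p = 0.28), and it was called without mGS 2 (1.92). GS 1, with the lowest Gfra1, also had the lowest mean over this list, 655 against 919 and 999 in the other GS lines.

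**Figure D4:**
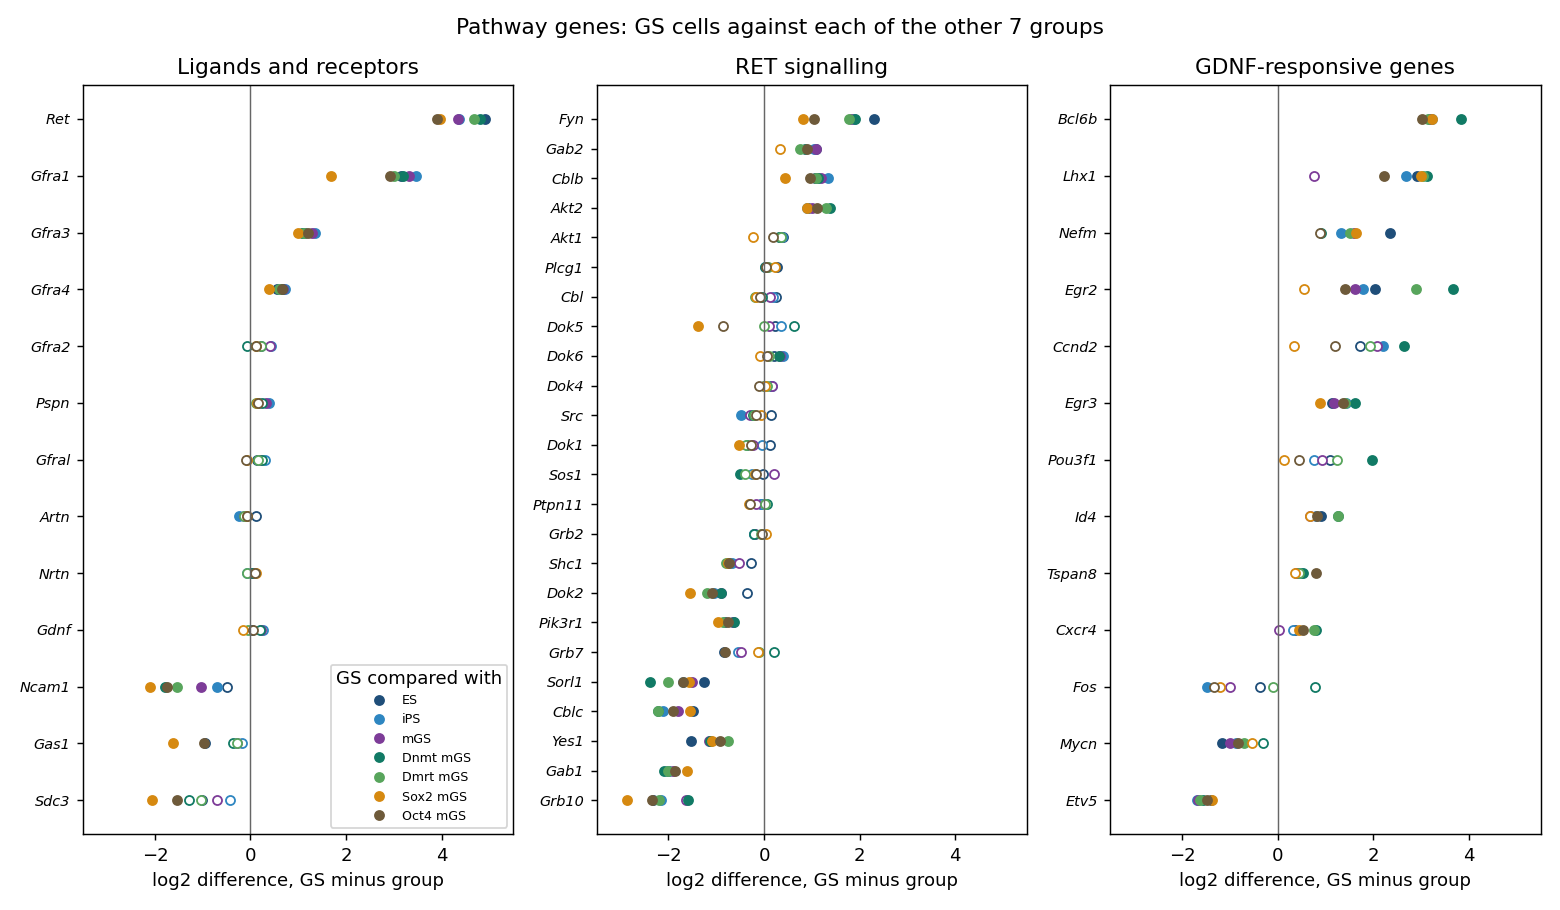
Log2 difference of GS minus each pluripotent group for genes of 3 lists (other ligands and binding partners, RET signalling, genes known to answer GDNF); each point is a gene in 1 comparison, colours name the comparison group, and filled points have an adjusted p under 0.05. Fyn, Cblb and Akt2 are called on the positive side and Gab1, Yes1 and Etv5 on the negative side in all 7 comparisons, and Bcl6b lies at 3.03 or above throughout.

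Neural and neural crest cells, in which Ret and Ncam1 are also known to be active, were looked for through 13 markers measured. Their mean level was 134 to 175 in GS, 205 to 239.5 in ES and 271 to 291 in Sox2 mGS. In GS against ES, 1 of them was higher and 4 lower, beside 26% and 17.2% of all genes. Against Sox2 mGS 0 were higher and 7 lower, beside 24.6% and 19.4%. The part of neural cells in the Ret and Ncam1 values was not tested.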

How the data were processed

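The deposited table holds linear intensity values of 28856 probe sets on 46 Affymetrix whole-transcript arrays of mouse RNA. The authors' summarisation and normalization are not stated in the labels. The build mm9 is named in the submitters' processing notes. Array medians lie between 215.4 and 264.8, and the number of arrays limits the precision. Of the probe sets, 21789 carry 1 gene symbol, 1621 several and 5446 none, and only the first were named.

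Intensities were put on the log2 scale and the 2 cultures of a line were averaged, since they are cultures of 1 line. The labels call them biological replicates. Each gene was read by its probe set with the highest mean, which left 19938 genes. One model over 23 lines and 8 groups was fitted with limma 3.58.1 (lmFit and eBayes, R 4.3.3), and p-values were adjusted by Benjamini-Hochberg within each of 28 pairs of groups. The procedure was tested on simulated data. Feeder signal is the mean log2 level of 20 markers, printed as intensity.

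The genes, the lists and the markers were chosen with earlier results of these data known, and no list was given a test. Named are the 7 genes, list members called in GS against ES from the largest difference in either direction with those that go against their list, and for each of the 7 genes the 5 with the highest Pearson correlation. Alternatives covered the treatment of cultures, normalization between arrays, an offset of 50, the dimmest 40% of genes and the variance model. They also covered the mean of all probe sets of a gene, replicate numbers, feeder signal and single lines left out. Promoter windows came from RefSeq (GRCm38.p6).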

Additional observations from a re-analysis of the deposited data

Results flagged for a closer look

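For 3 of the 56 sets of a gene and a group, 1 array stood far from the others in the Dixon test, which flags about 5% by chance. Gfra3 was 97.7 in culture 1 of Oct4 mGS 1, where the other arrays of that group had 150.1 to 172. Gfra4 was 143 on the same array, where the others had 205 to 231. That array has the highest median of the 46, and leaving it out changed no call of either gene against GS. Without it Gfra4 in Dnmt mGS against Sox2 mGS (−0.25) and Gfra3 in iPS against Sox2 mGS (−0.35) became called. Gdnf was 137 in culture 1 of iPS 5, where the other iPS arrays had 166 to 177.

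The routes from GS to pluripotency differed from each other in 7 of 42 tests, taken over 6 pairs of routes and 7 genes with limma. Of all 19938 genes, 5642 were called between Dnmt mGS and Sox2 mGS, 3028 between Dnmt mGS and Oct4 mGS, 1615 between Dmrt mGS and Sox2 mGS, 289 between Dmrt mGS and Oct4 mGS, 23 between Sox2 mGS and Oct4 mGS and 1 between Dnmt mGS and Dmrt mGS. Between Dnmt mGS and Sox2 mGS the differences were −0.82 for Ret, −1.52 for Gfra1 and −0.35 for Gdnf. Between Dmrt mGS and Sox2 mGS they were −0.70 for Ret and −1.32 for Gfra1. Against Oct4 mGS, Ret differed by −0.90 in Dnmt mGS and by −0.78 in Dmrt mGS. Each comparison was of 3 lines with 3, and every one had the higher level in Sox2 mGS or Oct4 mGS. With the feeder signal as a covariate, Ret between Dnmt mGS and Sox2 mGS (adjusted p = 0.051), Ret between Dmrt mGS and Sox2 mGS (0.14) and Gdnf (0.23) were not called.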

How the results depend on the processing

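For the 7 genes in the comparisons with GS, 274 of 287 values with a line left out and 649 of 665 under the other alternatives kept their side of the threshold, and the counts of all genes called stayed within 1.5 times. No called difference of the 7 genes changed sign, while 6 and 4 of these uncalled values did, and 122 over all 28 pairs of groups. Ret against ES ranged from 4.47 to 5.03 under settings other than single lines left out, and Gfra1 against Sox2 mGS from 1.60 to 2.15. Genes of the 3 lists were rerun under the same alternatives, chosen after seeing the data: 5466 values were on the same side, 222 lost their call, 210 gained one and 1 reversed. Grb2 in GS minus Sox2 mGS went from 0.03 (adjusted p = 0.86) to −0.32 with the feeder signal as a covariate.

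Same-numbered cultures had a median r of deviations of 0.0025 over 253 pairs, with a range from −0.44 to 0.39. Same-numbered lines had a median of 0.085 over 52 pairs, with a range from −0.64 to 0.79. With such ranges the medians cannot exclude that some samples were paired, and the main fit used no pairing. With the culture number as a replicate block Ret in GS against ES was 4.91, and Gfra2 against mGS (0.42) became called (adjusted p = 0.018). Each of the 7 genes has 1 probe set, so the setting with the mean of all probe sets of a gene left their differences unchanged. The 665 values under other alternatives include that setting, which could hardly move a call of these genes. Levels near 164.9, as for Ret in ES, bound what signal over background can show.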
